A study of Mus musculus with 4 samples.

Results

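Spots of MC38 tumor sections that held at least 1 UMI of Xcr1 or Clec9a, called cDC1 spots here, were compared with spots of the same section and the same depth that held neither. In Visium, a spot on the slide captures the RNA of the small patch of tissue above it, which can contain several cells, and a UMI (unique molecular identifier) marks 1 captured RNA molecule. The rule found 422 cDC1 spots among 11947 spots under tissue (3.53%) in 4 sections, and the other 11525 spots were called cDC1-free. The spots were selected on the UMIs of these 2 genes, so the values of both are given below as a description only and were left out of every comparison of genes.

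Each section came from a separate MC38 tumor, a colon carcinoma line of C57BL/6 origin, grown under the skin of female F1 hosts of 8 to 12 weeks. The CC075F1 hosts (C57BL/6J x CC075/UncJ, 2 sections), from the strain designated the responder to PD-1 blockade, and the CC080F1 hosts (C57BL/6J x CC080/TauUncJ, 2 sections), from the designated non-responder, shared the same treatment. All had received 200 µg of isotype control antibody once, at a tumor size of 75 to 110 mm3, and were sampled after 48 hours. The tumors therefore show the state without anti-PD-1, each strain rests on 2 tumors, and tumor cells and host differ in genotype within every section. Section totals ran from 82594649 to 146460975 UMIs. In what follows, sets of 4 values are in the order CC075F1 replicate 1, CC075F1 replicate 2, CC080F1 replicate 1 and CC080F1 replicate 2.

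Conventional type 1 dendritic cells (cDC1) take up material from dying tumor cells and present its peptides on MHC class I to CD8+ T cells, a process called cross-presentation. Their development depends on the transcription factors IRF8 and BATF3, they carry the chemokine receptor XCR1, whose ligand XCL1 is made by NK and activated CD8+ T cells, and they sense dead cells through CLEC9A, which binds exposed actin filaments. In tumors they are rare, and they are known as a source of IL-12 and of the T cell attracting chemokines CXCL9 and CXCL10. CXCL9 is also made by macrophages and other cells exposed to interferon gamma (IFN-γ), so it does not mark cDC1.

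The cDC1 spots numbered 177 of 2710 (6.53%; exact 95% binomial interval 5.63% to 7.53%) in CC075F1 replicate 1 and 131 of 3276 (3.999%; 3.35% to 4.73%) in CC075F1 replicate 2. In CC080F1 there were 45 of 2787 (1.61%; 1.18% to 2.15%) in replicate 1 and 69 of 3174 (2.17%; 1.70% to 2.74%) in replicate 2. The shares of the strains did not overlap, with means of 5.27% ± 1.79 and 1.89% ± 0.395 (SD, n = 2 sections each). These intervals cover counting error only. With every spot thinned to 10000 UMIs, the shares expected were 2.41%, 1.03%, 0.4926% and 0.719%, with 53 to 205 spots of a section below that depth left out, and CC075F1 again lay higher. Since the rule uses these 2 genes, no test was made of the shares.

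Xcr1 was seen in 222 spots and Clec9a in 209, and 9 spots held both, where 4.90 would be expected if the genes were placed independently within each section. The signal was thin: 397 cDC1 spots (94.1%) held exactly 1 marker UMI, 23 held 2 and 2 held 3, so the spots just inside the threshold are nearly all of them and those just outside hold 0. Xcr1 stood at 1.36, 0.437, 0.256 and 0.302 CPM (the usual CPM unit, UMI counts scaled to the same total in every section) and Clec9a at 0.993, 0.492, 0.256 and 0.328 CPM. At this depth a spot without a marker UMI may still contain a cDC1, and fewer cDC1 and less marker RNA per cell cannot be told apart.

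**Figure D1:**
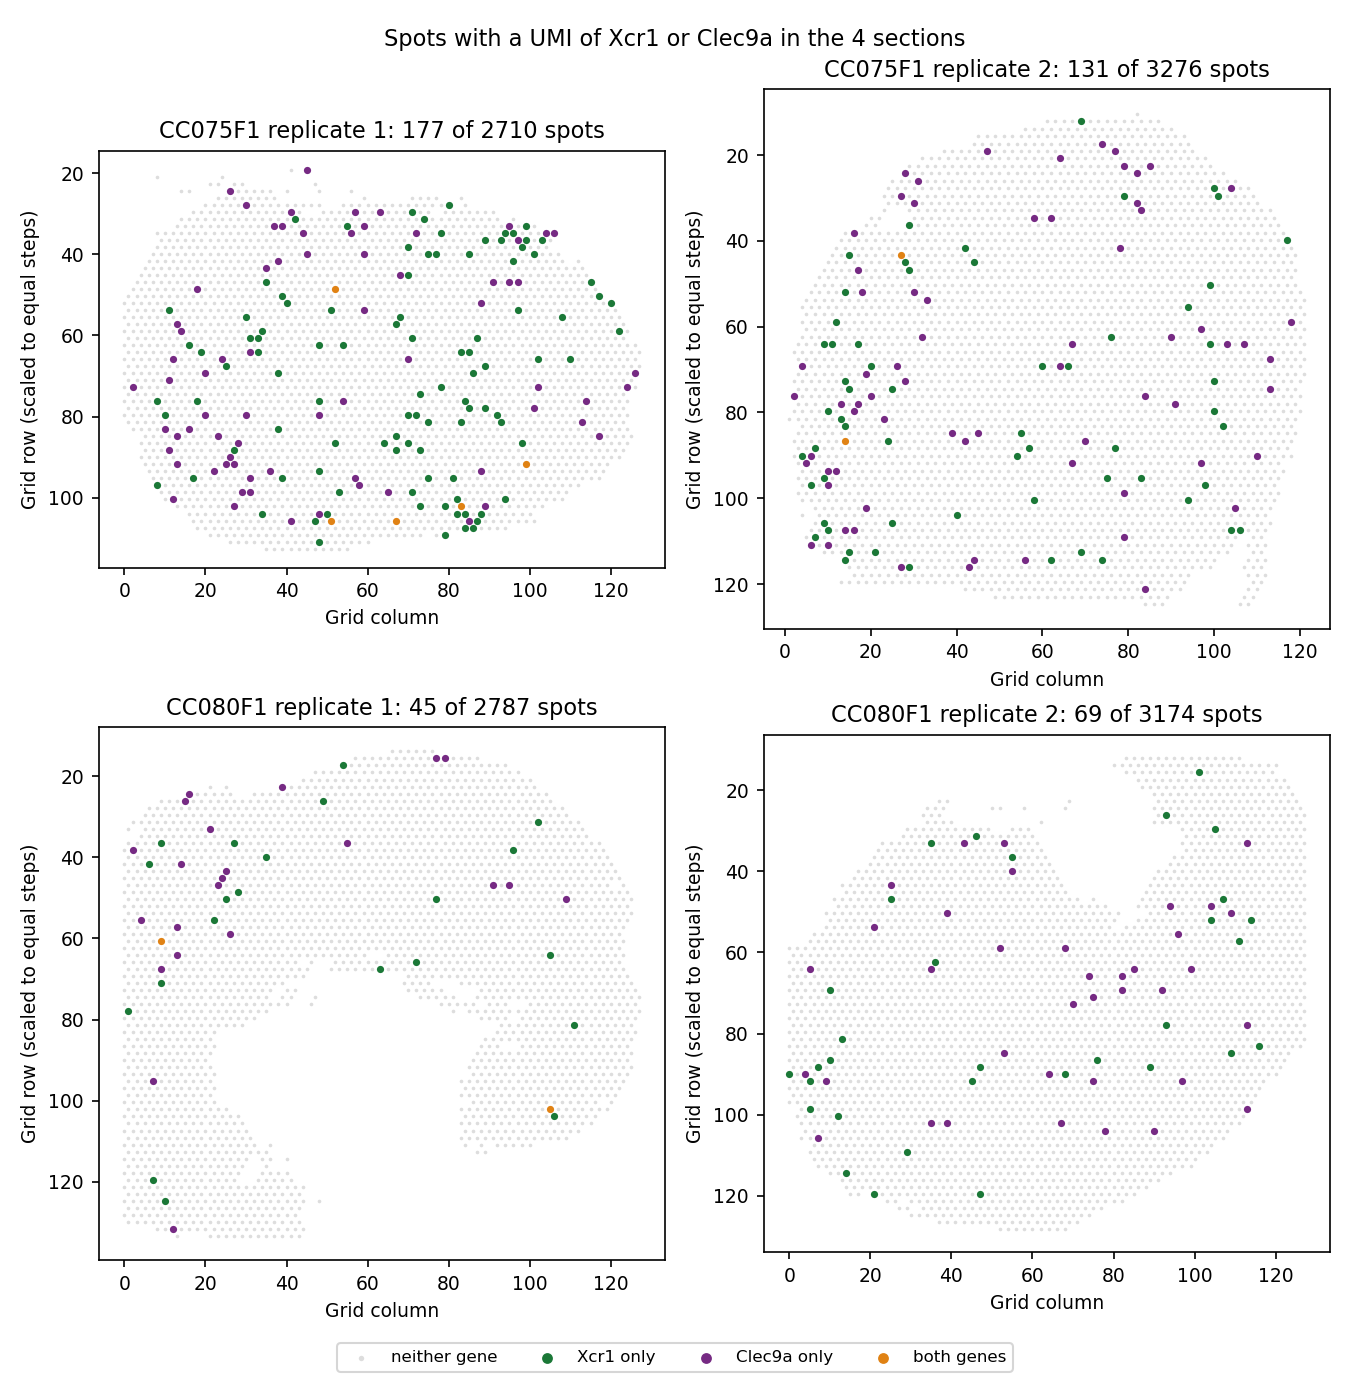
Position of the cDC1 spots in the 4 sections. Each dot is a spot under tissue at its grid column and row (rows scaled so that neighbouring spots are equally spaced), gray without either gene, green with Xcr1 only, purple with Clec9a only and orange with both. The panels hold 177, 131, 45 and 69 cDC1 spots, and 302 of the 422 have no cDC1 spot beside them.

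The cDC1 spots were few and spread over the sections, as the map shows. Of the 422, 302 (71.6%) had no other cDC1 spot among their up to 6 neighbours. The number to expect from spots this rare was not computed, so this share does not tell scatter from clustering. The neighbours of cDC1 spots were themselves cDC1 spots in 9.84%, 6.32%, 4.41% and 0.966% of cases, against 6.35%, 4.21%, 1.98% and 2.13% around depth-matched cDC1-free spots, so the share was higher in 3 sections and lower in CC080F1 replicate 2.

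The distance to the edge was measured in grid steps to the nearest position off tissue. In CC075F1 the mean was 8.46 ± 5.75 (SD over 177 spots) in cDC1 spots and 9.83 in matched spots of replicate 1, and 8.25 ± 6.36 (131 spots) and 10.7 in replicate 2. In CC080F1 it was 7.47 ± 4.49 (45 spots) and 6.14 in replicate 1, and 8.41 ± 4.95 (69 spots) and 9.25 in replicate 2. The cDC1 spots thus lay nearer to the edge in 3 sections and farther from it in CC080F1 replicate 1. The mean difference over sections was -0.838 steps (SD 1.59, n = 4), which does not exceed the spread between sections (two-sided exact paired permutation p = 0.375, where the smallest p that 4 pairs allow is 2 of 16 sign arrangements). Within 3 steps of the edge lay 23.7%, 26.0%, 22.2% and 15.9% of cDC1 spots and 16.05%, 17.7%, 32.3% and 18.1% of matched spots.

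**Figure D2:**
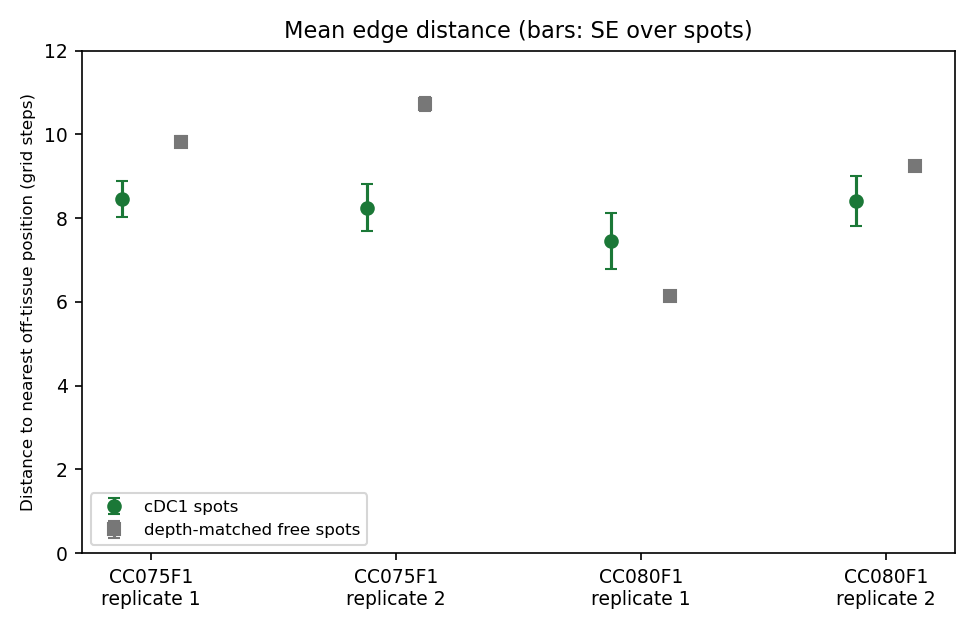
Mean distance to the nearest position off tissue, in grid steps, of cDC1 spots (green circles) and depth-matched cDC1-free spots (gray squares) in each section. Bars are the standard error over spots, which share a section and are not replicates; the green mean is below the gray one in 3 sections and above it in CC080F1 replicate 1.

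For the comparison of genes, UMIs were summed over the cDC1 spots of a section and over 10, 13, 22 and 30 times as many cDC1-free spots drawn from the same deciles of depth (6533 in all). Median depths were 32635, 49447, 37092 and 36008 UMIs in cDC1 spots and 32342.5, 50343, 38707 and 36513 in matched spots. Levels below are CPM scaled by TMM, a between-library scaling, and the test paired the classes within sections (edgeR quasi-likelihood with Benjamini-Hochberg adjustment over all genes tested). Of 13193 genes tested, 539 (4.09%) passed an adjusted p of 0.05, 300 (2.27%) higher and 239 (1.81%) lower in cDC1 spots. Among those 539, 453 (84.0%) had the same direction in all 4 sections, against 19.9% of all tested genes. The paired test selects such genes from these same sections, so the agreement is no separate support. Differences were mostly small, with 18 genes at least 2-fold higher and 5 at least 2-fold lower. Scaled by library size alone, 447 genes were higher and 126 lower. CC075F1 replicate 2, whose TMM factors (0.725 and 0.780) stood apart from those of the other sections (1.05 to 1.17), moved this count most among the sections left out in turn: without it 227 genes passed, 146 higher and 81 lower, and none of the 537 genes of the first set that could be tested turned its sign.

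Batf3, Irf8, Cd24a, Wdfy4, Ppt1 and Naaa, all known for cDC1, were higher where a marker UMI had been found. They are the 6 that passed among the 13 genes of the cDC1 identity list that could be tested, of 14. All 13 had a positive log2 fold change (median 0.34; all tested genes -0.01). Batf3 stood at 12.9, 12.8, 3.62 and 5.65 CPM in cDC1 spots and 8.24, 9.32, 2.52 and 3.57 CPM in matched spots. It was higher in every section, with higher levels in CC075F1 than in CC080F1 in both classes (log2 fold change 0.56, SE 0.13, adjusted p = 0.00286). At the level of spots, 129 of the 422 held Batf3, where 90.7 would be expected at the same depth. Irf8, its partner in cDC1 development, was at 35.5, 47.9, 24.3 and 34.2 CPM against 30.6, 31.4, 21.2 and 28.3 CPM (log2 fold change 0.36, SE 0.07, adjusted p = 2.40e-04). Cd24a, a surface glycoprotein carried by cDC1 and by many other cells, had the largest difference of the list, with 2.11, 2.4, 1.55 and 3.18 CPM against 0.861, 0.962, 0.744 and 1.12 CPM, higher in all 4 sections (log2 fold change 1.33, SE 0.31, adjusted p = 0.00301), on 3 to 13 UMIs a section.

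Wdfy4, which cDC1 need to cross-present cell-associated antigen, was at 17.4, 13.6, 17.6 and 15.5 CPM against 15.4, 9.47, 9.72 and 12 CPM (log2 fold change 0.39, SE 0.11, adjusted p = 0.0164). Ppt1, a lysosomal thioesterase, rose in all 4 sections by a log2 fold change of 0.34 (adjusted p = 9.98e-06), as did Naaa, a lysosomal amidase, by 0.22 (adjusted p = 0.00928). The remaining members did not pass: Rab7b at 0.33 (adjusted p = 0.0626), Itgae at 1.04 (adjusted p = 0.169), and Cadm1, Tlr3, Snx22, Ifi205 and Btla between 0.06 and 0.79. With DESeq2's Wald test, Cd24a, Irf8 and Ppt1 kept their call and Batf3, Wdfy4 and Naaa had adjusted p of 0.122, 0.121 and 0.201. Without CC075F1 replicate 2, 3 of the list passed. With spots chosen on Xcr1 alone, Ppt1 was the 1 member that passed, while Batf3, Irf8 and Cd24a were at 0.56, 0.29 and 1.45 (adjusted p of 0.152, 0.183 and 0.07). With Clec9a alone 3 passed, Irf8, Ppt1 and Naaa.

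Genes of other dendritic cells gave a mixed picture. In the conventional DC list, Itgax (CD11c) was at 29, 24, 7.77 and 15.9 CPM against 21.5, 19.7, 6.22 and 12.6 CPM (log2 fold change 0.36, SE 0.09, adjusted p = 0.00941; DESeq2 adjusted p = 0.209), and Cst3, a cysteine protease inhibitor abundant in dendritic cells and macrophages, rose by 0.14 (adjusted p = 0.00373). Zbtb46, a transcription factor of conventional DCs, did not pass (-0.14), with section log2 ratios of -0.34, 0.11, 0.38 and -0.65. No cDC2 gene of 4 tested passed, although all 4 had positive values (median 0.54), among them Clec10a at 0.78, Irf4 at 0.60 and Mgl2 at 0.48 (adjusted p = 0.053 for Mgl2, the lowest of them). In the plasmacytoid DC list only Tcf4 and Cox6a2 could be tested. Cox6a2, which also encodes a muscle subunit of cytochrome c oxidase, fell by 0.58 on the log2 scale (adjusted p = 5.67e-09), while Siglech, the defining surface marker, was in 0 of 422 cDC1 spots where 2.24 (0.531%) would be expected. A count of 0 allows a share of up to 0.711%, so a difference in Siglech was not detectable at this depth.

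The mature migratory DC list, which describes dendritic cells on their way to lymph nodes, had 2 of 11 tested genes passing, both higher. Ccl17, a chemokine that attracts CCR4+ T cells, was at 5.04, 4.19, 3.62 and 3.88 CPM against 4.02, 1.34, 2.74 and 1.69 CPM (log2 fold change 0.79, SE 0.23, adjusted p = 0.0245). This call was lost with DESeq2 (adjusted p = 0.139), without CC075F1 replicate 2 or CC080F1 replicate 2, with Xcr1 alone, and with matching on edge distance, Cxcl9 or hypoxia genes too (adjusted p of 0.175, 0.689 and 0.307). Ccr7, the lymph node homing receptor, was at 1.79, 2.2, 0 and 12.4 CPM against 0.877, 1.91, 1.27 and 2.51 CPM (log2 fold change 1.23, SE 0.29, adjusted p = 0.00319). This call rests on CC080F1 replicate 2: section log2 ratios were 0.96, 0.19, -2.57 and 2.22 (with 0.5 UMI added, since CC080F1 replicate 1 held none in cDC1 spots), the log2 fold change without that section was 0.32, and DESeq2 and limma-voom gave adjusted p of 0.999 and 0.128. Ccl22 (0.82, adjusted p = 0.0748) did not pass, and Fscn1 and Relb were at -0.03 and -0.01. IL-12 could not be assessed, since Il12b was found in 1 of the 422 cDC1 spots and was too low for the test.

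Chemokines that draw cDC1 or that cDC1 are known to make were among the clearest differences. In the list for cDC1 recruitment and licensing, 5 of 14 tested genes passed, all higher, while 9 of the 14 had positive values and 5 negative ones. Xcl1, the ligand of XCR1, was at 4.72, 5.79, 3.62 and 13.8 CPM in cDC1 spots and 3.21, 3.62, 2.02 and 7.67 CPM in matched spots, higher in all 4 sections (log2 fold change 0.72, SE 0.17, adjusted p = 0.00443). It was detected in 80 cDC1 spots, where 47.5 would be expected at the same depth. Cxcl9 was at 449.6, 694, 97.8 and 221 CPM against 281, 382, 39 and 108 CPM, a 1.84-fold difference (log2 fold change 0.88, SE 0.04, adjusted p = 7.22e-26). Its level varied more between strains than between classes, as matched spots of both CC075F1 sections lay above the cDC1 spots of both CC080F1 sections, yet it was higher in cDC1 spots within each section. Cxcl10 rose by 0.37 (adjusted p = 7.59e-11), Cxcl16 by 0.17 (adjusted p = 0.0204) and Cd86, a costimulatory ligand of CD28, by 0.39 (adjusted p = 0.0365). The chemokines Ccl3, Ccl4 and Ccl5 were at -0.10, -0.02 and -0.01, and Cd40 at 0.25 (adjusted p = 0.313).

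**Figure D3:**
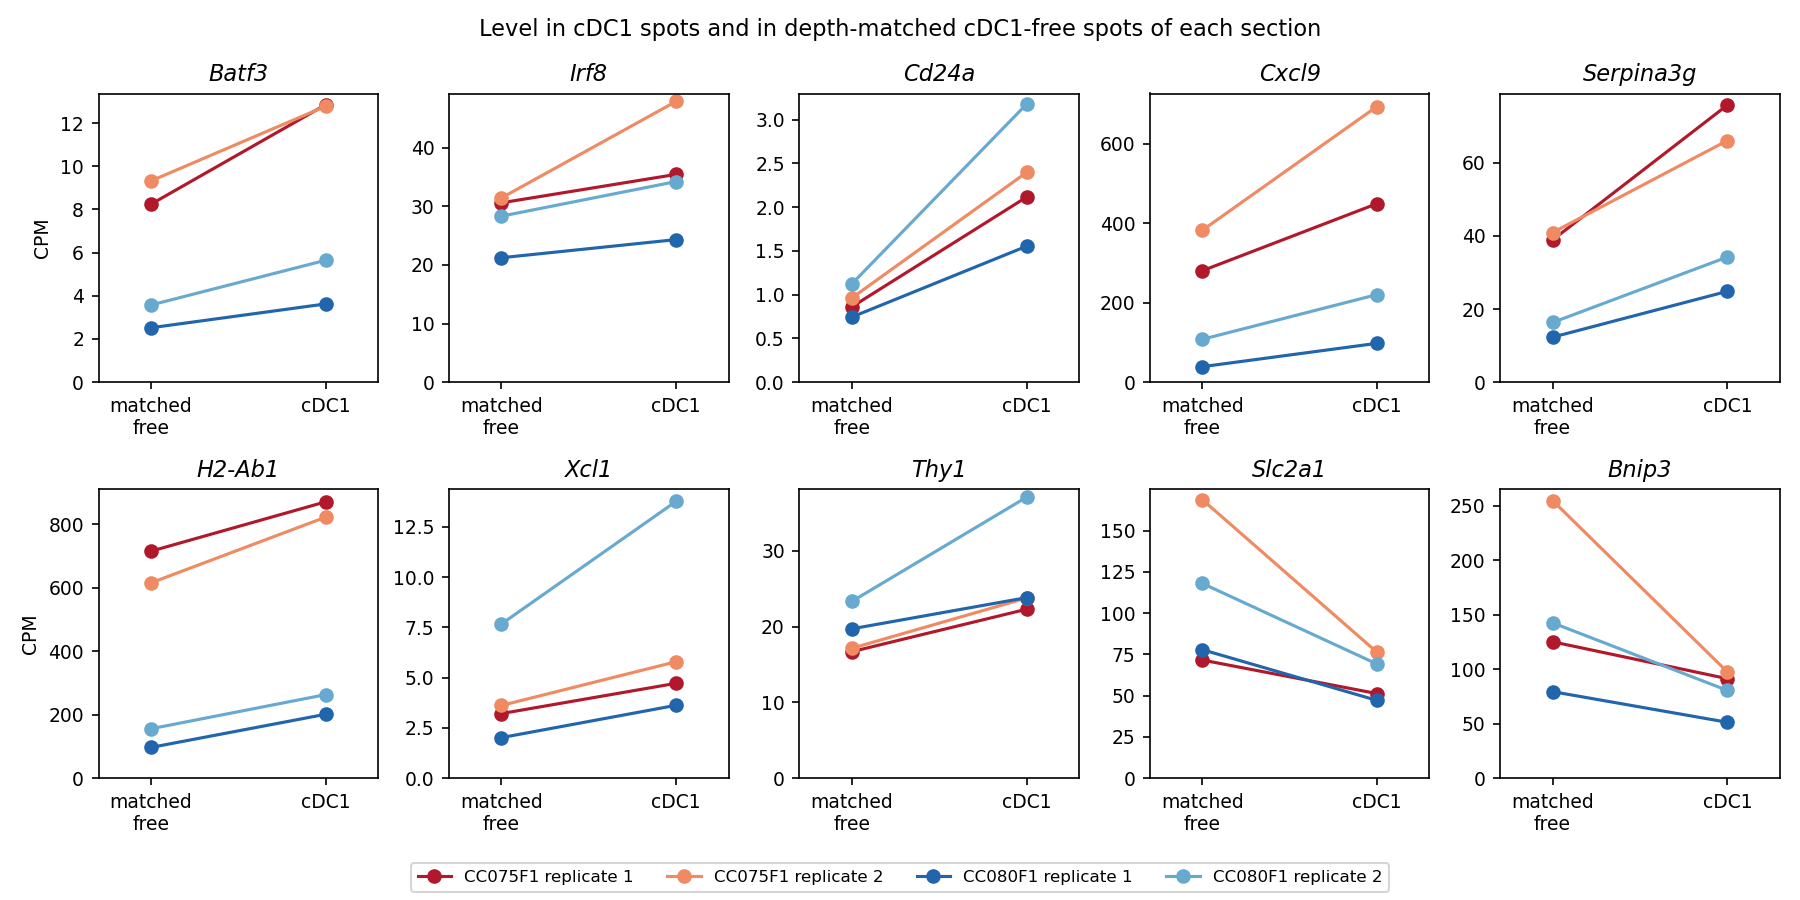
Level of 10 genes in depth-matched cDC1-free spots (left) and cDC1 spots (right) of each section, in TMM-scaled CPM on linear axes that start at 0; each line joins the classes of 1 section, red for CC075F1 and blue for CC080F1. Lines rise in all 4 sections for Batf3, Irf8, Cd24a, Cxcl9, Serpina3g, H2-Ab1, Xcl1 and Thy1 and fall in all 4 for Slc2a1 and Bnip3.

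The genes induced by IFN-γ rose as a group. All 10 genes of the interferon gamma response list were higher and passed (median log2 fold change 0.47), and 9 passed with DESeq2. Besides Cxcl9, the lowest p-values belonged to Gbp2 and Gbp4, GTPases of cell-autonomous defence. Gbp2 stood at 345, 442, 134 and 364 CPM against 267, 284, 117 and 222 CPM (log2 fold change 0.52, SE 0.04, adjusted p = 2.16e-15) and Gbp4 rose by 0.63 (adjusted p = 7.62e-14). Ifng itself was low, at 2.11, 4.99, 1.55 and 2.12 CPM against 2.52, 2.74, 0.432 and 0.906 CPM, and did not pass (log2 fold change 0.56, SE 0.27, adjusted p = 0.316).

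Several of the largest rises outside the lists were also genes known to respond to IFN-γ. Serpina3g, an intracellular inhibitor of cathepsins, was at 75.8, 66.1, 24.9 and 34.2 CPM against 38.9, 40.9, 12.3 and 16.3 CPM, a 1.84-fold difference that held in all 4 sections (log2 fold change 0.88, SE 0.06, adjusted p = 3.95e-18). Its neighbour Serpina3f rose by 0.86, Ubd, a ubiquitin-like protein, by 0.86, Calhm6 by 0.81 and the complement regulator Serping1 by 0.75 (adjusted p of 7.96e-05, 1.15e-10, 3.14e-04 and 1.47e-08). Mfng, a glycosyltransferase that modifies Notch receptors, rose by 0.71 and the complement gene C3 by 0.70 (adjusted p of 6.33e-05 and 1.58e-06). Ly6c2, a surface protein of monocytes that also responds to interferon, had the largest rise among genes with a mean of 5 CPM or more and 1 direction in all 4 sections, at 3.09, 34.3, 5.18 and 20.8 CPM against 1.79, 18.2, 3.31 and 9.33 CPM (log2 fold change 0.95, SE 0.11, adjusted p = 6.73e-10). Serpina3g and Serpina3f, like the genes of the Gbp and Ly6 families, have close relatives with which reads can be confused.

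Antigen presentation differed by class. In the MHC class II list, 7 of 8 genes passed and all were higher (median 0.47). H2-Ab1, a chain of the class II molecule I-A, was at 871, 823, 201 and 263 CPM against 715, 615, 96.9 and 156 CPM (log2 fold change 0.54, SE 0.05, adjusted p = 1.22e-13). Cd74, the invariant chain, rose by 0.47, H2-Aa by 0.49 and H2-Eb1 by 0.43 (adjusted p of 7.55e-14, 7.62e-14 and 1.39e-10). Ciita, the master regulator of class II transcription, was detected in 130 cDC1 spots, where 90.2 would be expected, and rose by 0.64 (adjusted p = 0.00166). In the list of MHC class I and cross-presentation, 5 of 11 passed, all higher and all small: the peptide transporter Tap1 by 0.29, the peptide-loading chaperone Tapbp by 0.17 and the immunoproteasome subunits Psmb8, Psmb9 and Psmb10 by 0.11, 0.18 and 0.17. The class I chains H2-K1 and H2-D1 and their light chain B2m were at 0.01, 0.02 and -0.01, with an SE of 0.03 each.

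T cell and NK cell genes leaned higher, with few calls. All 12 T cell genes had positive values (median 0.34) and 2 passed. Thy1, a surface glycoprotein of T cells that stromal cells also carry, was at 22.3, 23.8, 23.8 and 37.1 CPM against 16.7, 17.1, 19.7 and 23.3 CPM (log2 fold change 0.48, SE 0.08, adjusted p = 3.41e-05), and Trbc2, a constant region of the T cell receptor, rose by 0.34 (adjusted p = 0.0471; DESeq2 adjusted p = 0.402). Cd8a did not pass (log2 fold change 0.06, SE 0.17, adjusted p = 0.932), with section log2 ratios of -0.08, -0.11, 0.02 and 1.95, with 11 UMIs in cDC1 spots of CC080F1 replicate 2, the section that stood apart. Of 10 NK and cytotoxic genes 4 passed, Klrk1 (NKG2D) at 0.64, Gzma at 0.88, Gzmb at 0.51 and Nkg7 at 0.30, and none had the same direction in all 4 sections. None of these 4 passed without CC075F1 replicate 2 or with DESeq2. In the regulatory T cell list 1 of 5 passed, Tnfrsf18 (GITR) at 0.64 (adjusted p = 0.0286), and none of 7 checkpoint genes did, with Ctla4 at 0.75 and Pdcd1 at 0.37.

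Genes induced by low oxygen were lower in cDC1 spots. Of the 10 hypoxia genes, 9 passed, all lower (median -0.64), and the tenth, Adm, was at -0.89 (adjusted p = 0.155). The glucose transporter Slc2a1 stood at 51.2, 76.3, 47.1 and 69.2 CPM in cDC1 spots and 71.6, 169, 77.9 and 118 CPM in matched spots (log2 fold change -0.82, SE 0.06, adjusted p = 1.31e-17). Bnip3, which directs mitochondria to autophagy, was at 91.3, 97.5, 51.3 and 80.5 CPM against 125, 255, 79.4 and 142 CPM (log2 fold change -0.87, SE 0.07, adjusted p = 3.28e-17). Both were lower in every section, most of all in CC075F1 replicate 2, and without that section the median of the list was -0.41 with 7 genes passing. Ankrd37 fell by 0.81 and the glycolytic enzyme Pgk1 by 0.35 on the log2 scale (adjusted p of 1.81e-11 and 1.15e-10). Among the 10 largest falls were Bnip3, Slc2a1 and Ankrd37 of this list and further genes known to be hypoxia-inducible, as Ero1l, an oxidase of the endoplasmic reticulum, fell by 0.66, Mxi1, an antagonist of MYC, by 0.65 and the mitochondrial protein Mgarp by 0.72 (adjusted p of 7.62e-14, 1.85e-06 and 5.88e-06). The heat shock gene Hspa1b, which has a near-identical neighbour, had the largest fall among genes with a mean of 5 CPM or more and 1 direction in all 4 sections, at 6.02, 10.4, 2.07 and 5.65 CPM against 9.12, 23.1, 5.47 and 16 CPM (log2 fold change -1.06, SE 0.13, adjusted p = 8.50e-09). Ier3 fell by 0.80, Mmp12, a macrophage elastase, by 0.65 and Angptl6 by 0.64 (adjusted p of 1.59e-09, 0.00113 and 0.00367; DESeq2 adjusted p = 0.0778 for Mmp12 and 0.929 for Angptl6).

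The promoters of the genes that moved together are shown for both directions, since hypoxia-inducible factors are known to bind the core ACGTG and many genes induced by IFN-γ are known to carry the palindrome TTCNNNGAA. In the 250 bases before each start in the RefSeq table (GRCm38.p6), ACGTG on either strand (read as CACGT on the other) occurred in 16.6% of 32851 promoters and in 8 of the 11 promoters (72.7%) of the 9 hypoxia genes that the table holds, namely those of Ankrd37, Bnip3, Car9, Egln3, Ldha, Pgk1, Slc2a1 and Vegfa but not Adm. TTCNNNGAA, the same on both strands, occurred in 7.02% of promoters. Among the 10 largest rises it occurred in 3 of the 10 promoters of the 8 genes that the table holds. These were promoters of the related neighbours Serpina3g and Serpina3f, so they do not count as separate genes moving together. TTCNNNGAA occurred in 1 of the 8 promoters of the 6 interferon gamma response genes that the table holds, that of Irf1. The promoters of Cxcl9, Ubd and Gbp2 held no match. The sequences of Slc2a1 (chr4:119108495-119108744, plus strand), Bnip3 (chr7:138909507-138909756, minus strand) and Serpina3g (chr12:104235897-104236146, plus strand) read as follows, 5′ to 3′ along the gene, with the ACGTG or CACGT core in capitals in the first pair and TTCNNNGAA in the third.
Slc2a1: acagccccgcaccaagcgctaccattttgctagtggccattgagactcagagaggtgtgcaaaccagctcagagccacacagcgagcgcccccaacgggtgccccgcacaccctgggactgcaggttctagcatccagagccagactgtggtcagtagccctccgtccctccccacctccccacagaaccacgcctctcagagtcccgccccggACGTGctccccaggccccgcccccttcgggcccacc
Bnip3: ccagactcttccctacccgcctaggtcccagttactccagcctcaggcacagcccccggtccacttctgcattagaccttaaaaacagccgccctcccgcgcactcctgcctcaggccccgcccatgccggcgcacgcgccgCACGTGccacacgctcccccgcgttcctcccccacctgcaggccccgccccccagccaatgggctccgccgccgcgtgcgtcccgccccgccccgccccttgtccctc
Serpina3g: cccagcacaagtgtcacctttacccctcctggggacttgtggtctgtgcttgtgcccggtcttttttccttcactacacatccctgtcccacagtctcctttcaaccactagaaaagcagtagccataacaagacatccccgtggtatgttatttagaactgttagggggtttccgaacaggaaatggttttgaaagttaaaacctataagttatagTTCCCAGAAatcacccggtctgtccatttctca
The core of Slc2a1 begins 36 bases before the start, and the capitals of Bnip3 read the same on both strands and hold overlapping matches. A match says only that the letters are present. The hypoxia list was chosen as genes known to be induced by low oxygen, so its share of ACGTG is not a result of these data.

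Matching spots on further features changed how much of this remained. Each of these matchings also drew fewer comparison spots than the first in every section, and the part of this in the lost calls was not tested. The matchings on Cxcl9 and hypoxia were chosen after the differences in Cxcl9 and hypoxia genes had been seen. When comparison spots were also matched on 3 strata of Cxcl9 level, 91 of 12803 tested genes passed (51 higher, 40 lower). Of these, 89 were among the first 539. This matching drew 885, 655, 720 and 621 comparison spots, against 1770, 1703, 990 and 2070 without it. With this matching the median was 0.13 for the interferon gamma response (4 of 10 passing) and 0.21 for MHC class II (4 passing). It was 0.21 for cDC1 identity (Ppt1 alone passing) and -0.21 for hypoxia (6 passing). Cxcl9, which set the matching, is a member of the interferon gamma response list, so part of that list's smaller median was fixed in advance. When comparison spots were instead matched on depth and 3 strata of the summed hypoxia list, 131 of 12544 tested genes passed (116 higher, 15 lower). The median of the hypoxia list was then -0.07 with none passing, as that list had set the matching, and those of the interferon gamma response, MHC class II and cDC1 identity were 0.28 (9 passing), 0.31 (6 passing) and 0.25 (2 passing). Matched on the presence of Ptprc (CD45), which 311 of the 422 cDC1 spots held, 489 genes passed, and matched on edge distance 409. At the same depth 288 would be expected to hold Ptprc. In CC075F1 replicate 1 it was in 122 cDC1 spots, where 122 would be expected.

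**Figure D4:**
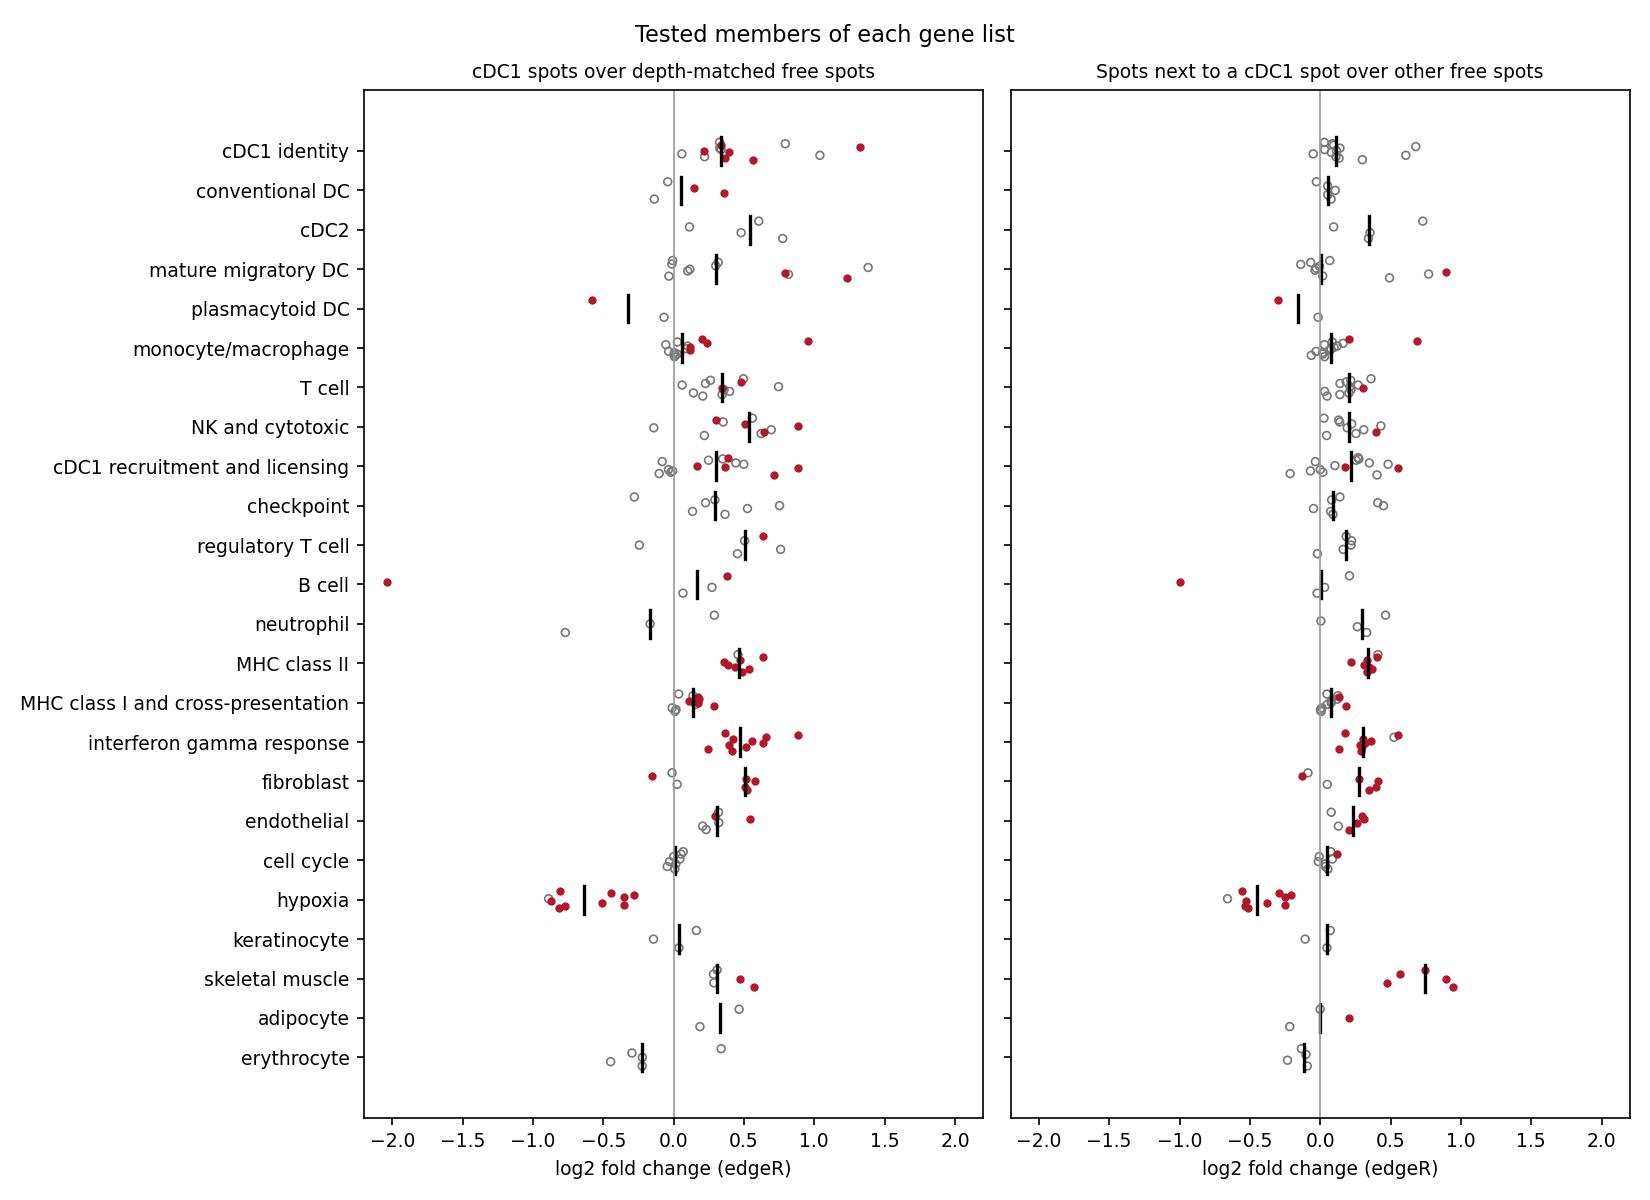
Log2 fold change of every tested gene of each list in cDC1 spots over depth-matched cDC1-free spots (left) and in cDC1-free spots next to a cDC1 spot over other cDC1-free spots (right). Each circle is a gene, filled red where its edgeR adjusted p was under 0.05, and the black bar is the median of the list. MHC class II and interferon gamma response genes lie to the right of 0 and hypoxia genes to the left in both panels, and cDC1 identity has 6 red circles on the left panel and 0 on the right.

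Markers of stroma and of other cells moved with the cDC1 spots as well. In the fibroblast list, Bgn, a matrix proteoglycan, was at 27.8, 133, 56.9 and 59.7 CPM against 23.3, 82.9, 32.7 and 41.8 CPM (log2 fold change 0.58, SE 0.06, adjusted p = 8.40e-12). Col1a1, Col1a2 and Postn rose too, while Dcn fell by 0.16 on the log2 scale (adjusted p = 0.00155), and the summed list was at 1612 to 2614 CPM in cDC1 spots and 1442 to 2464 CPM in matched spots. The fibroblast sum was lower in cDC1 spots of CC075F1 replicate 1 and higher in the other 3 sections. All 6 endothelial genes were positive (median 0.31) and 2 passed, Emcn at 0.54 and Egfl7 at 0.29, with the summed list at 104 to 170 CPM in cDC1 spots and 80.8 to 132 CPM in matched spots. Of 14 monocyte and macrophage genes 5 passed, all higher: besides Ly6c2 they were the Fc receptor Fcgr1 (0.24), the chemokine receptor Ccr2 (0.20) and the complement genes C1qa (0.11) and C1qc (0.12). The median of that list was 0.06, with Adgre1 (F4/80) at 0.01, and its sum lay at 3329 to 7248 CPM in cDC1 spots and 3435 to 6577 CPM in matched spots. No member of these lists was at 0, and the part of these cells in the differences above was not tested.

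The remaining lists held few calls. None of 8 cell cycle genes passed (median 0.01), nor did any of 3 neutrophil, 3 keratinocyte, 2 adipocyte or 5 erythrocyte genes. The values nearest to passing were 0.07 for Pcna, -0.77 for S100a8, -0.14 for Krt10, 0.19 for Fabp4 and -0.45 for Hbb-bt (adjusted p from 0.126 to 0.435). In the B cell list Ighm rose by 0.38 (adjusted p = 9.31e-05) and Igkc fell by 2.04, a value that rests on CC075F1 replicate 2 (section log2 ratios -0.96, -2.24, 0.27 and -0.19; DESeq2 adjusted p = 0.975). Acta1 and Mylpf of the skeletal muscle list passed at 0.57 and 0.47, with log2 ratios above 0 in CC075F1 and below 0 in CC080F1. Muscle signal was concentrated in CC075F1 replicate 2, where the summed list was at 240.0 CPM in cDC1 spots and 172 CPM in matched spots, against 3.67 to 10.3 CPM in both classes of the other sections. All 28 spots with over 1% of UMIs from skin, muscle or fat genes were in that section, 2 of them cDC1 spots, and 540 genes passed without them.

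Spots that held no marker UMI but lay beside a cDC1 spot were used to ask whether the pattern reached past the spots that the rule had chosen. There were 1985 such spots and 9540 other cDC1-free spots, again matched by depth within sections. Of 13468 genes tested, 329 (2.44%) passed, 168 (1.25%) higher and 161 (1.2%) lower in adjacent spots, and scaled by library size alone 204 were higher and 92 lower. In the MHC class II list 7 of 8 genes passed, all higher (median 0.34). In the interferon gamma response 9 of 10 passed, all higher (median 0.30), and in hypoxia 9 of 10, all lower (median -0.45). The members that did not pass had the same direction as the rest of their list. Cxcl9 was at 309, 579.9, 51.2 and 171 CPM in adjacent spots and 276, 344, 38.4 and 96.2 CPM in other cDC1-free spots (log2 fold change 0.56, SE 0.07, adjusted p = 5.27e-04). Slc2a1 was at 59.2, 99.6, 72.6 and 77.1 CPM against 74.6, 171, 80.9 and 119.8 CPM (log2 fold change -0.51, SE 0.06, adjusted p = 3.35e-04). Cxcl9 was higher and Slc2a1 lower beside cDC1 spots in all 4 sections, and Serpina3g and Ly6c2 rose by 0.54 and 0.69 (adjusted p of 3.34e-05 and 3.35e-04).

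No cDC1 identity gene of 13 passed in adjacent spots (12 of 13 positive, median 0.11, and 0 passing with DESeq2 or limma-voom). Over all genes 2.44% passed, so 0 of 13 is near that share and does not show a lack of difference. At an unadjusted p under 0.05 were 6 of the 13, and 1909 of all 13468 genes tested. Batf3 was at 0.30 (adjusted p = 0.0977), Irf8 at 0.13 (adjusted p = 0.221) and Cd24a at 0.68 (adjusted p = 0.103). Whether these values differ from those of cDC1 spots was not tested, since both comparisons draw on the same cDC1-free spots. Ccl17 rose in adjacent spots as well (0.90, adjusted p = 0.0206). All 5 tested muscle genes passed (Acta1 at 0.94), and 0 did without the spots with skin, muscle or fat genes, where 314 genes passed in all. The number of genes passing was 156 without CC075F1 replicate 2, 129 without CC080F1 replicate 2 and 524 without CC075F1 replicate 1.

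A class by strain term asked whether cDC1 spots stood out differently in the 2 strains. It passed for 20 genes (0.152%), 8 (0.0606%) with a larger log2 fold change in CC075F1 and 12 (0.091%) in CC080F1, and with DESeq2 for 0 (88 at an unadjusted p under 0.05). A group of 4 MHC class II genes rose more in CC080F1 on the log2 scale. For H2-Ab1 the log2 ratios of the sections were 0.28, 0.42, 1.05 and 0.76 (difference CC075F1 minus CC080F1 -0.53, SE 0.08, edgeR adjusted p = 6.77e-06). H2-Eb1, Cd74 and H2-Aa differed by -0.53, -0.41 and -0.40 (edgeR adjusted p of 6.76e-04, 9.74e-04 and 0.00597), and in all 4 genes both CC080F1 ratios lay above both CC075F1 ratios. These 4 genes were picked by the same term, so the separation of their ratios is no further support. Their levels were the other way round, with matched spots of CC075F1 at 715 and 615 CPM of H2-Ab1 and those of CC080F1 at 96.9 and 156 CPM. Taken as a difference in CPM rather than a ratio, H2-Ab1 rose more in both CC075F1 sections.

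The collagen genes Col1a1 and Col1a2 also rose more in CC080F1 (differences of -0.49 and -0.47, edgeR adjusted p of 0.00994 and 0.0122), with log2 ratios of 0.05, 0.45, 1.22 and 0.55 for Col1a1. C3 followed the same direction (-0.84, adjusted p = 0.0235). Gzma, a granzyme of cytotoxic lymphocytes, was higher in both CC075F1 sections and, in CC080F1, lower in replicate 1 and close to even in replicate 2, with 5.21, 31.2, 0.518 and 19.8 CPM against 2.65, 11.7, 1.08 and 18.7 CPM and a difference of 1.27 (SE 0.23, edgeR adjusted p = 4.28e-04). In CC080F1 replicate 1 the Gzma value of cDC1 spots rests on 1 UMI. No cDC1 identity, T cell or hypoxia gene passed this term, but with 0.152% of all genes passing, a count of 0 says little about these lists. Values were negative for 10 of 12 T cell genes (median -0.49), 9 of 13 cDC1 identity genes (-0.06) and 7 of 10 hypoxia genes (-0.11). The median of all tested genes was -0.01. At an unadjusted p under 0.05 were 2 T cell genes, 1 cDC1 identity gene and 0 hypoxia genes, and 568 of all 13193. Library batches were not given, so a batch and the strain cannot be told apart. With 2 sections per strain the count was sensitive to single sections, at 40 without CC075F1 replicate 1, 9 without CC080F1 replicate 1 and 7 without CC080F1 replicate 2.

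**Figure D5:**
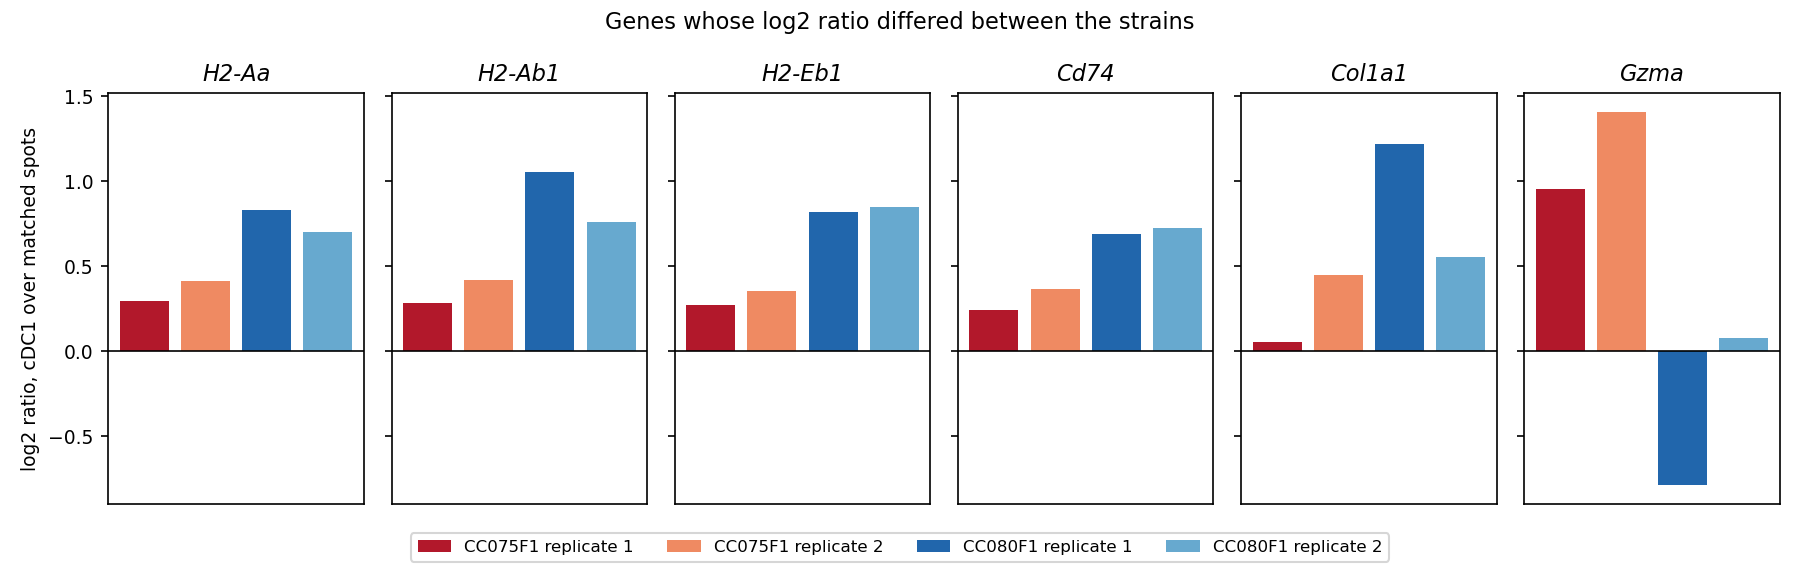
Log2 ratio of cDC1 spots over depth-matched cDC1-free spots for 6 genes that passed the class by strain term, with 1 bar for each section (red CC075F1, blue CC080F1) from a baseline of 0. For H2-Aa, H2-Ab1, H2-Eb1 and Cd74 both blue bars are taller than both red ones, and for Gzma the red bars are the taller.

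Finally, spots with Clec9a only (72, 69, 22 and 37) were compared with spots with Xcr1 only (100, 60, 21 and 32), a comparison added after the counts per marker had been seen. All spots of both kinds were used, without depth matching. In CC075F1 replicate 2 the median depth was 45435 UMIs in Clec9a-only and 55324.5 in Xcr1-only spots. Of 9895 genes tested, 4 (0.0404%) passed, all haemoglobin genes and all lower in Clec9a-only spots. Levels in this comparison are CPM without TMM scaling. Hba-a1 was at 8.33, 35.5, 14.3 and 2.79 CPM in Clec9a-only spots and 9.58, 94.9, 42.6 and 215 CPM in Xcr1-only spots (log2 fold change -2.17, SE 0.29, edgeR adjusted p = 2.15e-04). DESeq2 called 0 genes (31 at an unadjusted p under 0.05). The hypoxia list leaned lower in Clec9a-only spots (median -0.24, 8 of 8 tested genes negative, none passing), and cDC1 identity was near 0 (median 0.06). Taken against matched cDC1-free spots, Xcr1 alone gave 184 genes and Clec9a alone 408. The MHC class II list had 6 and 7 genes passing, the interferon gamma response 9 and 10, and hypoxia 7 and 10, in that order.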

How the data were processed

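Per the labels and the study's methods, the authors aligned the reads of 4 fresh frozen Visium sections to GRCm38 with GENCODE vM23 in Space Ranger 1.3.1 and deposited raw UMI counts per gene and spot under tissue (32285 genes), not normalized, with grid positions. The submitters' processing notes also name Seurat 5.0.1, and its normalized values were not used. The protocol describes sections of 4 blocks on a Visium slide. Whether libraries were made in batches, and the strand setting, were not given in the sources used here. Of 3994 distinct spot barcodes, 3405 occur in more than 1 section, as sections share a printed grid.

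The members and gene lists (24 lists, 201 genes, 176 tested) were chosen with earlier results of these data known. Spots were put in 10 strata of depth (UMIs without Xcr1 and Clec9a) within each section. The largest whole number of cDC1-free spots per cDC1 spot that every stratum allowed was drawn with a fixed seed, and UMIs were summed per class and section, giving 1652915 to 6422414 UMIs for cDC1 spots and 36020627 to 83256546 for matched spots. Genes passing filterByExpr on class were tested with the quasi-likelihood method of edgeR (version 4.0.16, under R 4.3.3), with TMM scaling and terms for section and class, at a Benjamini-Hochberg adjusted p of 0.05. DESeq2 1.42.0 and limma 3.58.1 served as alternatives. The section is the replicate (separate tumors), and spots are not. Section log2 ratios had 0.5 UMI added. The spots compared come from the same section, so the pairing is by tumor.

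Named genes were all passing members of the cDC1 identity, conventional DC, mature migratory DC, recruitment and licensing and T cell lists, the 2 to 4 members with the smallest p of each other list, and the 10 largest rises and 10 largest falls among passing genes with a mean of at least 5 CPM and the same direction in all 4 sections. Other genes named were chosen after their values were seen, and some genes are not reported here. Tested on simulated data for the cDC1 spot comparison (13193 genes, 200 changed), the fit recovered 88% of 2-fold and 92% of 4-fold changes, with 11 false calls among 191. Promoters came from RefSeq.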

Additional observations from a re-analysis of the deposited data

Results flagged for a closer look

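In 6 of the 100 named genes checked, 1 section's log2 ratio of cDC1 to matched spots lay apart from the other 3 by Dixon's test, where chance gives about 1 in 20, or 5. Mgl2 was at 1.01 in CC080F1 replicate 1 (0.33 to 0.39 elsewhere) and Clec10a at -0.67 in the same section (0.77 to 1.03 elsewhere). Ccr2 was at 0.42 in CC075F1 replicate 2 (0.12 to 0.14 elsewhere), and Cd86 at 0.49 in CC075F1 replicate 1 (0.30 to 0.31 elsewhere). In CC080F1 replicate 2, Tap1 was at 0.53 (0.21 to 0.23 elsewhere) and Sfn at -1.02 (0.31 to 0.42 elsewhere).

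The effect differed between strains by the class by strain term for 12 named genes, given as the CC075F1 minus CC080F1 log2 fold change. It was 1.27 for Gzma, -0.41 for Cd74, -0.40 for H2-Aa, -0.53 for H2-Ab1, -0.53 for H2-Eb1, -0.49 for Col1a1, -0.47 for Col1a2 and -0.84 for C3. For the haemoglobin genes it was -1.71 for Hbb-bt, -1.26 for Hbb-bs, -1.49 for Hba-a1 and -1.74 for Hba-a2, but sections of the same strain went opposite ways, with Hbb-bs log2 ratios of 0.37, -0.96, -0.81 and 1.03. DESeq2 called none of these 12 differences.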

How the results depend on the processing

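The classes were paired within section. With no replicate block, so that the pairing was dropped, 0 genes passed for cDC1 spots (135 at an unadjusted p under 0.05) and 0 for adjacent spots (26 unadjusted). For cDC1 spots, DESeq2 called 164 genes, at least 2 marker UMIs 87 (which leaves 1 spot in CC080F1 replicate 2), Xcr1 alone 184, matching on Cxcl9 91 and matching on hypoxia genes 131. Leaving out each section gave 227 to 488. The strain difference passed for 0 genes with DESeq2, 10 with 20 depth strata and 7 to 40 with a section left out. For adjacent spots it was 715 genes with no filter on low counts, 87 with DESeq2 and 129 to 524 with a section left out. For Clec9a-only against Xcr1-only spots it was 2 with limma-voom, 0 with DESeq2 and 3 to 17 with a section left out. The matchings on Cxcl9 and hypoxia genes, limma-voom and all settings of the last comparison were chosen after seeing the data. The other counts stayed within 1.5 times, and the edge difference stayed negative, from -1.56 to -0.295.

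Few named genes turned. With at least 2 marker UMIs, Ccr7 was at -0.36 and Mylpf at -0.86 in cDC1 spots. Matched on hypoxia genes, Cox6a2 was at 0.11 and Angptl6 at 0.067. Leaving out each section in turn, Hbb-bs ran from -0.76 to 0.51 in cDC1 spots, from -0.52 to 0.44 in adjacent spots and from -1.76 to 0.061 in the strain difference. Hba-a1 ran from -0.76 to 0.64 in cDC1 spots and from -0.68 to 0.56 in adjacent spots. Hba-a2 ran from -0.92 to 0.82 in cDC1 spots and from -0.68 to 0.66 in adjacent spots, and for Hba-a2, strain difference, the range was -2.15 to 0.18. In adjacent spots Mylpf ran from -0.12 to 1.00 and Ckm from -0.035 to 0.52. The turned values came without CC075F1 replicate 2, except the strain difference of Hbb-bs, which turned without CC080F1 replicate 2. The cause was not tested. With 1 marker UMI in 94.1% of cDC1 spots and 45 such spots in CC080F1 replicate 1, depth limits what low genes can show.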

Other observations

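Further genes, chosen after their values were seen, differed in all 4 sections. Hspa1a, a heat shock gene nearly identical to Hspa1b, was at 1.63, 3.79, 0.518 and 2.12 CPM in cDC1 spots and 5.21, 14.4, 0.96 and 10.3 CPM in matched spots (edgeR log2 fold change -1.91, SE 0.20, adjusted p = 1.19e-11). Chil3, a chitinase-like protein of monocytes and macrophages, was at 0.813, 6.59, 4.14 and 12.7 CPM against 0.679, 2.84, 1.73 and 4.94 CPM (edgeR log2 fold change 1.20, SE 0.21, adjusted p = 2.15e-05). Plvap, a component of vessel wall diaphragms, and Igfbp7, abundant in vessels, rose by 0.49 and 0.38 (edgeR adjusted p of 6.22e-08 and 2.15e-09). Ly6a (Sca-1), which interferon induces, was at 162, 665, 66.8 and 292 CPM against 123, 424, 41.6 and 188 CPM (edgeR log2 fold change 0.58, SE 0.04, adjusted p = 3.94e-18).

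A further call rested mostly on a single section. Apod, a lipocalin, was at 2.44, 5.59, 6.21 and 58.6 CPM against 2.14, 5.52, 6.26 and 12 CPM, apart only in CC080F1 replicate 2.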
